A study of Mus musculus with 6 samples.

Results

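Endothelial cells are specified and kept in their state by a small set of DNA-binding proteins, and 10 genes for such proteins (Sox7, Sox17, Sox18, Erg, Fli1, Ets1, Tal1, Gata2, Klf2 and Klf4) were followed in murine tissue around engineered cartilage. They were chosen by name from textbook knowledge of the endothelium, with earlier results of these data known, out of 48440 genes in the count table. All 10 were among the 15257 genes that passed the filter on low counts. SOX7, SOX17 and SOX18 form the SoxF family, which acts in arterial and lymphatic specification and in sprouting. ERG, FLI1 and ETS1 are ETS factors that bind enhancers of many endothelial genes. TAL1 and GATA2 act together in complexes of both the endothelium and blood cells, and KLF2 and KLF4 are zinc finger factors induced in the endothelium by laminar blood flow. None of the 10 is restricted to the endothelium, and KLF4 in particular is also made by epithelia, fibroblasts and macrophages.

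The tissue came from male BALB/c nude mice, which lack a normal thymus and are short of mature T cells but keep B cells and myeloid cells. Each construct was BEC, cartilage engineered from rabbit bone marrow stromal cells, wrapped in an electrospun membrane of polycaprolactone and collagen and placed under the skin for 12 weeks. The membrane held 0% or 3% by weight of axitinib, an inhibitor of VEGF receptor kinases, and there were 3 samples of the 0%-Axitinib group and 3 of the 3%-Axitinib group. The deposited labels call the first group untreated, and it was read as the 0%-Axitinib group from the series design and the protocol, so that both groups carried the membrane and the construct. Each mouse carried a pair of constructs from the same group, and the mouse of each sample is not given, so p-values measure the spread between samples, which may share a mouse. The comparison asks how these factors differed in the surrounding tissue when the membrane carried the drug.

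Counts on genes numbered 17761968, 16716411 and 18005908 in replicates 1, 2 and 3 of the 0%-Axitinib group. In the 3%-Axitinib group they numbered 9225518, 11686084 and 18403795. Unmapped reads made up 5.47%, 3.84% and 14.9% of the 0%-Axitinib libraries and 48.4%, 29.2% and 16.8% of the 3%-Axitinib libraries, so this share was higher in every 3%-Axitinib library. The paper describes harvest of each sample with the mouse tissue attached, so rabbit RNA may be present, and its share was not measured. Levels are given as CPM, counts scaled to library size after TMM normalization, and a count of 3 corresponded to between 0.157 and 0.330 CPM.

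Several libraries stood apart in the markers of other tissues. In 0%-Axitinib replicate 3, the summed level of 9 erythroid and megakaryocyte genes was 22862 CPM, against 554 and 448 CPM in replicates 1 and 2 of that group and 340, 616 and 701 CPM in the 3%-Axitinib replicates. Its most abundant gene, the beta-globin Hbb-bs, stood at 9949 CPM there and at no more than 280 CPM elsewhere. Gata1, the erythroid partner of TAL1, was at 62.2 CPM in that replicate and at no more than 0.175 CPM in the other 5. The platelet gene Gp9 was at 32.2 CPM there and at 0 in all 3%-Axitinib samples. B and plasma cell genes summed to 1239 CPM in the same replicate, against 156 and 312 CPM in the rest of its group and 39.5, 29.0 and 53.3 CPM in the 3%-Axitinib replicates. Spearman's rho of this library with its own group was 0.891 and 0.893, while replicates 1 and 2 of the group had a rho of 0.978. Keratinocyte genes summed to 895 CPM in 0%-Axitinib replicate 2 and to between 9.02 and 15.5 CPM in the other samples. Skeletal muscle genes summed to 17596 CPM in 3%-Axitinib replicate 1 and 9801 CPM in replicate 3, against 22.96 CPM in replicate 2 and 176, 9.27 and 16.7 CPM in the 0%-Axitinib group. In 3%-Axitinib replicate 2, fibroblast genes summed to 70946 CPM, against 10776 to 27375 CPM in the other samples, and cartilage genes to 1440 CPM, against 232 to 560 CPM. For the 10 genes, fold changes that rest on these libraries are given with and without them, while correlations are given with all samples only. For the lists, counts without a sample were added after seeing the data, and a part of them is given beside the lists.

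**Figure D1:**
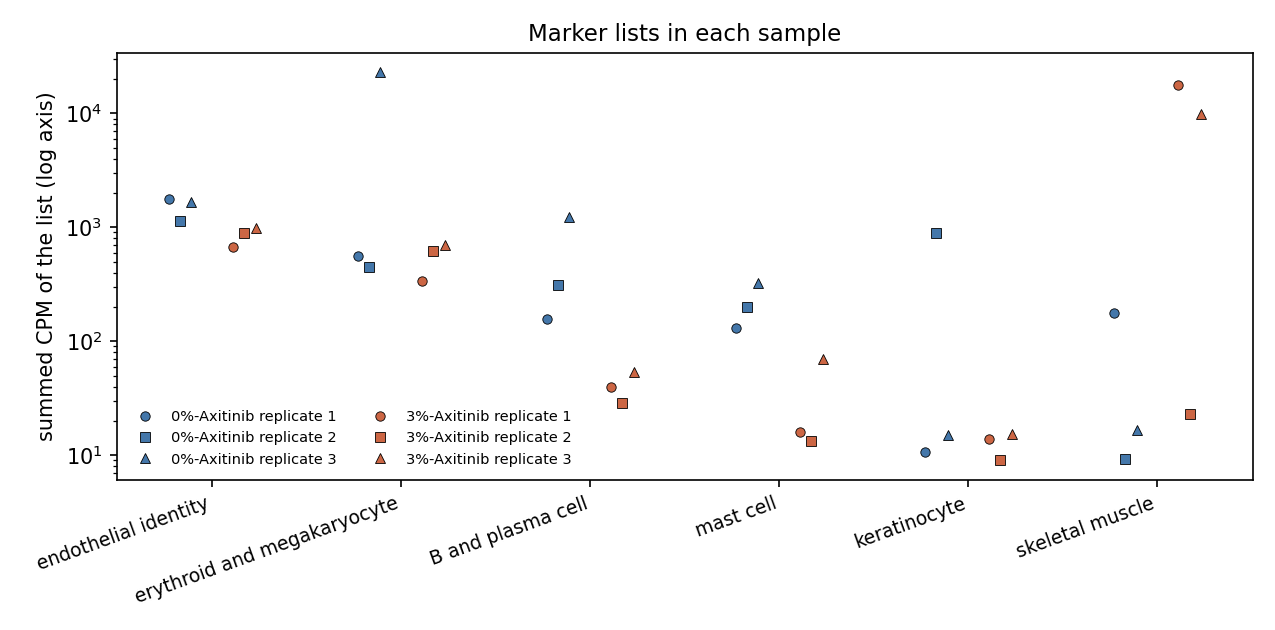
Summed CPM (log axis) of 6 marker lists in each of the 6 samples, with 1 point per sample, blue for the 0%-Axitinib group and orange for the 3%-Axitinib group. The erythroid and megakaryocyte list reached 22862 CPM in 0%-Axitinib replicate 3, while the skeletal muscle list was high in 3%-Axitinib replicates 1 and 3.

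Of the 10 genes, 8 were lower in the 3%-Axitinib group by the criterion of the study, which asks for a 1.5-fold or larger change and a P-value no higher than 0.05 (taken as unadjusted), and these were the 3 SoxF genes, the 3 ETS genes, Tal1 and Gata2. Klf2 and Klf4 did not meet it, and no gene of the 10 was higher by it. Among all 15257 tested genes, 11.7% were lower and 9.54% were higher by the same criterion in the edgeR fit used here. The paper, with another normalization and set of genes, reported fewer genes by it, with more higher than lower. The groups did not overlap for 7 of the 10, all lower in the 3%-Axitinib group, against 16.6% of all tested genes lower and 14.7% higher without overlap. The median log2 fold change of the 10 was -1.78, and that of all tested genes was -0.03. With Benjamini-Hochberg adjustment over all tested genes, edgeR's quasi-likelihood test left 0 of the 10 and 1 of all tested genes (0.00655%) at or under 0.05, while 8 of the 10 were at or under 0.05 before adjustment. That gene was Nr1d1, a clock repressor, with a mean of 10.1 CPM (SD 1.69) without the drug and 144 CPM (SD 32.3) with it, 3 samples each. It met the criterion without any 1 sample, and stayed at or under the adjusted threshold only without 0%-Axitinib replicate 3 or without 3%-Axitinib replicate 2. DESeq2's Wald test gave 7 of the 10 and 1960 of all genes an adjusted p of at most 0.05, while limma-voom gave 0 of the 10. In the limma-voom fit, 7 of the 10 and 9.73% of all tested genes were lower by the criterion. Without 0%-Axitinib replicate 3, 7 of the 10 were lower by the criterion and 5 passed the adjusted threshold, and in that fit 13.7% of all tested genes were lower and 7.98% reached the adjusted threshold. With the mean skeletal muscle level as a covariate, 5 of the 10 and 5.57% of all genes were lower by the criterion. In bulk tissue, fewer endothelial cells and less RNA of a gene per cell cannot be told apart.

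**Figure D2:**
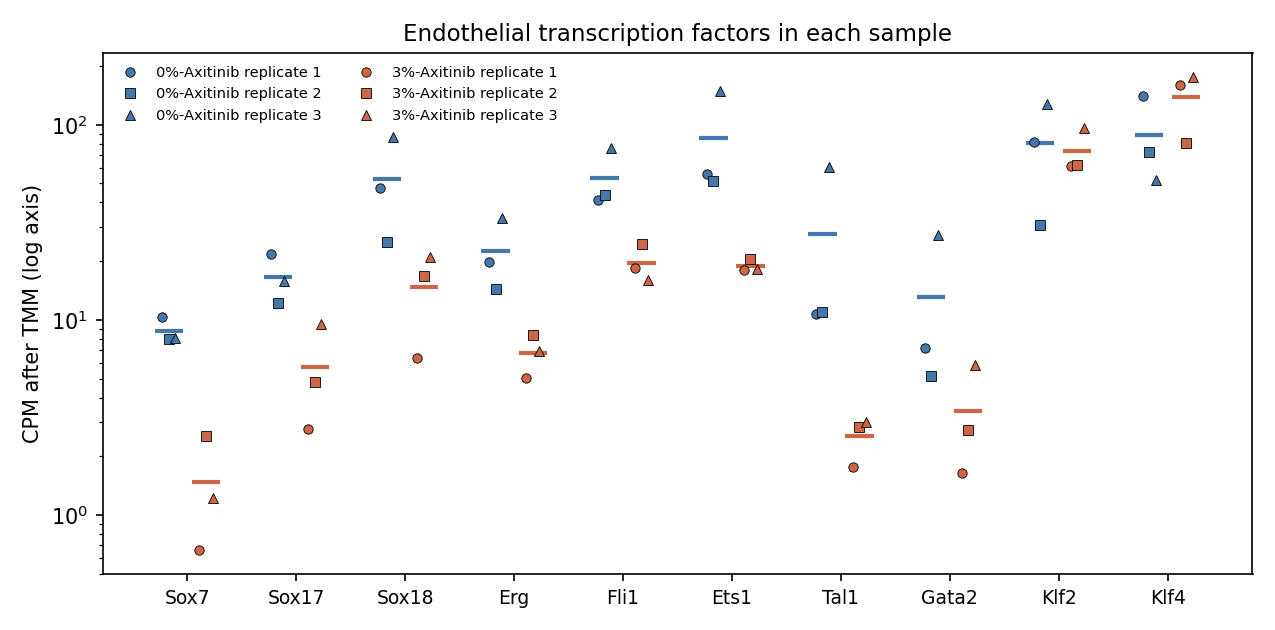
CPM after TMM normalization (log axis) of the 10 genes in each sample, with 1 point per sample and a horizontal bar at the mean of each group of 3. The 3%-Axitinib points lie below all 0%-Axitinib points for 7 genes, and the groups overlap for Gata2, Klf2 and Klf4.

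Sox7, on chromosome 14 of GRCm38 from 63943673 to 63950732, had the lowest mean level per kilobase of the SoxF genes in both groups. Its level was 10.4, 7.99 and 8.04 CPM in replicates 1, 2 and 3 of the 0%-Axitinib group and 0.660, 2.55 and 1.22 CPM in the 3%-Axitinib group. The 0%-Axitinib samples lay close together, including replicate 3, and all 3%-Axitinib samples lay far below them. The log2 fold change was -2.57 (standard error 0.52), with an adjusted p of 0.0965 in edgeR's test. Only 6, 28 and 21 reads carried the 3%-Axitinib values, so their ratio to one another is imprecise. Without 3%-Axitinib replicate 2, the sample with the highest level of its group, the log2 fold change was -3.19.

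Sox17, an arterial regulator on chromosome 1 from 4490931 to 4497354, measured 21.8, 12.2 and 15.9 CPM in the 0%-Axitinib group and 2.75, 4.83 and 9.55 CPM in the 3%-Axitinib group. The groups did not overlap, but the highest 3%-Axitinib sample came near the lowest 0%-Axitinib sample. Its log2 fold change was -1.53 (standard error 0.49), with an adjusted p of 0.139 in edgeR's test. The criterion was missed without 0%-Axitinib replicate 1 (log2 fold change -1.29, adjusted p of 0.236 in edgeR's test) and without 3%-Axitinib replicate 2 (-1.42, adjusted p of 0.291). Leaving out 3%-Axitinib replicate 3 gave -2.13. An exon of the gene may overlap Gm37587 on the other strand, which had 0 reads in every sample. The sources used here do not say whether counting used the strand, and without it reads in the overlap would count for neither gene.

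Sox18, on chromosome 2 from 181669836 to 181671640, was the most abundant SoxF gene per length. It measured 47.3, 25.1 and 86.1 CPM in the 0%-Axitinib group and 6.38, 16.8 and 21.0 CPM in the 3%-Axitinib group. The 0%-Axitinib replicates spread widely and still lay above all 3%-Axitinib replicates. The log2 fold change was -1.84 (standard error 0.57), with an adjusted p of 0.135 in edgeR's test. Without 0%-Axitinib replicate 3, where the level was highest, it was -1.29 with an adjusted p of 0.131 in edgeR's test, and the criterion was met. The criterion was not met with the skeletal muscle list as a covariate (-1.59, adjusted p of 0.496 in edgeR's test).

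The makeup of the SoxF family was compared as the share of each gene in the summed SoxF counts, which ranged from 776 to 2026 in the 0%-Axitinib samples and were 89, 265 and 549 in the 3%-Axitinib samples. Sox18 made up 64.4% (SD 12.2) of these counts without the drug and 66.9% (SD 2.24) with it, over 3 samples each. The share of Sox17 was 22.9% (SD 7.35) and 26.0% (SD 5.33), and that of Sox7 was 12.7% (SD 5.19) and 7.04% (SD 3.38), in the same order. All 3 shares overlapped between the groups, with two-sided exact permutation p of 0.8, 0.5 and 0.2 for Sox18, Sox17 and Sox7, where the smallest p that 3 against 3 samples allow is 0.1. The summed level of the family was 79.6, 45.3 and 110 CPM without the drug and 9.79, 24.1 and 31.8 CPM with it, without overlap, while no difference in its makeup was resolved. Without 0%-Axitinib replicate 3, and likewise without 3%-Axitinib replicate 2, 2 of the 3 shares did not overlap between the groups.

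Erg, the ETS factor most closely tied to endothelial identity, lies on chromosome 16 from 95359169 to 95586593. Its level was 19.8, 14.3 and 33.2 CPM in the 0%-Axitinib group and 5.06, 8.38 and 6.95 CPM in the 3%-Axitinib group. Every 3%-Axitinib sample was below every 0%-Axitinib sample. The log2 fold change was -1.72 (standard error 0.38), with an adjusted p of 0.0972 in edgeR's test. Without 0%-Axitinib replicate 3, where the level was highest, it was -1.33 with an adjusted p of 0.0492 in edgeR's test.

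Fli1, on chromosome 9 from 32422204 to 32542861, has roles in both endothelial and blood cells. It measured 41.3, 43.7 and 75.9 CPM in the 0%-Axitinib group and 18.4, 24.4 and 16.0 CPM in the 3%-Axitinib group. The groups did not overlap, with a log2 fold change of -1.45 (standard error 0.31) and an adjusted p of 0.0965 in edgeR's test. Without 0%-Axitinib replicate 3, where Fli1 was highest, its log2 fold change was -1.12 with an adjusted p of 0.0419 in edgeR's test. The 6 genes annotated within its span (Gm22060, Gm38292, Gm38346, Gm27201, Gm37474 and Gm37082) overlap none of its exons, and Gm37474 alone of them was tested.

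Ets1 is the neighbour of Fli1 on chromosome 9, from 32636221 to 32757820, and is also strongly expressed in lymphocytes. The level was 56.0, 51.6 and 149 CPM in the 0%-Axitinib group and 17.9, 20.5 and 18.2 CPM in the 3%-Axitinib group. The 3%-Axitinib samples were nearly equal, while 0%-Axitinib replicate 3 stood far above the rest of its group. The fitted log2 fold change of Ets1 was -2.18 (standard error 0.44), with an adjusted p of 0.0965 in edgeR's test, and without that replicate it was -1.51 with an adjusted p of 0.0379. B and plasma cell genes were lower in the 3%-Axitinib group for 6 of the 6 tested of 8, and were highest in the same replicate. Without that replicate 5 of the 6 met the criterion and the median log2 fold change of the list was -2.69, against -5.34 with it, and 4 of 7 tested met the criterion without 3%-Axitinib replicate 3. Within the list and with all samples, Ighm was the most abundant gene and had the smallest change, with a log2 fold change of -3.27, and Jchain had the largest, -7.92. With 0%-Axitinib replicate 3 left out they were -2.13 and -7.09, and Cd79b (-1.45) had the smallest. Of 9 tested T cell genes, 5 were lower, from Cd3e with a log2 fold change of -4.10 to Cd2 with -0.17, which did not meet the criterion. Without 0%-Axitinib replicate 3 the count was again 5 of 9, and the median log2 fold change of the list was -1.25 against -3.63 with it, and Cd3e (-1.25) no longer met the criterion. Leaving out 0%-Axitinib replicate 1 gave 9 of 12 tested, and leaving out 3%-Axitinib replicate 3 gave 3 of 12. The T cell list summed to 182, 396 and 311 CPM in the 0%-Axitinib group and 127, 112 and 137 CPM in the 3%-Axitinib group, with Il7r as its most abundant gene. Cd8a was at 0 in all 3%-Axitinib samples and at 25.7 CPM in 0%-Axitinib replicate 3. The part of these cells in the level of Ets1 was not tested. Gm27240, antisense to Ets1, shares no exon with it.

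Tal1, the stem cell leukaemia factor, lies on chromosome 4 from 115056426 to 115071755. Its level was 10.7, 11.02 and 61.1 CPM in the 0%-Axitinib group and 1.76, 2.82 and 3.01 CPM in the 3%-Axitinib group. The groups did not overlap, and 0%-Axitinib replicate 3 was far above the other samples. At -3.43 (standard error 0.79), with an adjusted p of 0.0973 in edgeR's test, its log2 fold change was the lowest of the 10. Without that replicate it was -2.09, with an adjusted p of 0.0379 in edgeR's test, and Sox7, at -2.63, was then the lowest. The decrease of Tal1 was thus also present against replicates 1 and 2 alone. It missed the criterion with the skeletal muscle list as a covariate (-2.91, adjusted p of 0.446 in edgeR's test).

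Gata2, on chromosome 6 from 88193891 to 88207032, was at 7.15, 5.13 and 27.2 CPM in the 0%-Axitinib group and at 1.65, 2.73 and 5.91 CPM in the 3%-Axitinib group. The groups overlapped, since 3%-Axitinib replicate 3 was above 0%-Axitinib replicate 2. With a log2 fold change of -1.92 (standard error 0.76) and an adjusted p of 0.193 in edgeR's test, it had the highest adjusted p of the 8 lower genes. The criterion was missed without 0%-Axitinib replicate 3 (log2 fold change -0.82, adjusted p of 0.331 in edgeR's test), without 3%-Axitinib replicate 1 (-1.58, adjusted p of 0.406) and without 3%-Axitinib replicate 2 (-1.76, adjusted p of 0.366). Leaving out 3%-Axitinib replicate 3 gave -2.56. The criterion was also missed in limma-voom and with the skeletal muscle list as a covariate.

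Tal1 and Gata2 are shared with erythroid, megakaryocyte and mast cells, and both were highest in the replicate with high erythroid genes. Of 8 tested erythroid and megakaryocyte genes of 9, 6 were lower by the criterion, from the platelet gene Ppbp with a log2 fold change of -5.33 to Pf4 with 0.27, which did not meet it. Without any 1 of the 3%-Axitinib replicates none of the 8 met the criterion, while their median log2 fold change, -4.35 with all samples, stayed between -4.69 and -3.96. That median was -0.15 without 0%-Axitinib replicate 3. In that fit 1 of the 8 was lower and Pf4 was higher, Ppbp had a log2 fold change of 0.71 and Hbb-bs one of -0.19, and neither of the last 2 met the criterion. Klf1, the erythroid KLF factor, was at 39.8 CPM in 0%-Axitinib replicate 3 and at no more than 0.470 CPM in the other samples. Mast cell genes summed to 130, 199 and 326 CPM in the 0%-Axitinib group and 15.8, 13.4 and 69.1 CPM in the 3%-Axitinib group. All 9 of them were tested and lower without overlap, and 8 were lower by the criterion without 0%-Axitinib replicate 3 and 6 without 3%-Axitinib replicate 1 or 2. With all samples they ran from Ms4a2 with a log2 fold change of -4.43 (-2.92 without 0%-Axitinib replicate 3) to the most abundant, Tpsab1, with -1.90 (-3.19 without 3%-Axitinib replicate 3), which missed the criterion without 0%-Axitinib replicate 2 and without 3%-Axitinib replicate 1 or 2. Fcer1a was at 0 in 3%-Axitinib replicate 1. The part of blood and mast cells in the levels of Tal1 and Gata2 was not tested.

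Klf2, on chromosome 8 from 72319033 to 72321656, measured 82.1, 30.7 and 128 CPM in the 0%-Axitinib group and 61.3, 62.4 and 96.6 CPM in the 3%-Axitinib group. The 3%-Axitinib samples lay within the range of the 0%-Axitinib samples. Its log2 fold change was -0.13 (standard error 0.49), with an adjusted p of 0.890 in edgeR's test, and without 0%-Axitinib replicate 3 it was 0.38 with an adjusted p of 0.567 in edgeR's test.

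Klf4, on chromosome 4 from 55527143 to 55532466, was at 140, 72.5 and 52.1 CPM in the 0%-Axitinib group and at 159, 80.5 and 176 CPM in the 3%-Axitinib group. The groups overlapped, although the highest samples belonged to the 3%-Axitinib group. Its fitted log2 difference of 0.65 (standard error 0.44) with an adjusted p of 0.397 in edgeR's test did not meet the criterion. Without 0%-Axitinib replicate 1, the sample with the highest level of its group, it was 1.15 with an adjusted p of 0.183 in edgeR's test, and the criterion was met. With the skeletal muscle list as a covariate it was -0.12.

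Per kilobase of exon, the 0%-Axitinib levels ran in the order Klf2, Sox18, Klf4, Fli1, Ets1, Erg, Tal1, Sox17, Sox7 and Gata2. Klf2 stood at 43.5 ± 26.4 CPM per kilobase (SD, n = 3), Fli1 at 15.4 ± 5.55 (SD, n = 3) and Gata2 at 2.44 ± 2.26 (SD, n = 3), and the samples of each pair of neighbours in this order overlapped. In the 3%-Axitinib group the order was Klf4, Klf2, Sox18, Fli1, Ets1, Erg, Sox17, Gata2, Tal1 and Sox7. Here the lowest Klf2 sample, 33.2 CPM per kilobase, was above the highest Sox18 sample, 12.97 CPM per kilobase. A gap also lay between Fli1, at 5.62 ± 1.25 CPM per kilobase (SD, n = 3), and Ets1, at 2.23 ± 0.166 (SD, n = 3), and the other neighbours overlapped.

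To see how the factors stood against the endothelium as a whole, each was set against the mean log2 level of 23 endothelial identity genes such as Pecam1, Cdh5 and Kdr. Of these 23, 17 were lower in the 3%-Axitinib group by the criterion, 14 of them without overlap, and the median log2 fold change was -1.30. The count was 11 without 3%-Axitinib replicate 1, an alternative chosen after seeing the data. The junction gene Cldn5 had the lowest log2 fold change, -2.38, but without 0%-Axitinib replicate 3 it was -1.71 and Cdh5 (-2.33) was the lowest. With all samples, Ramp2 had the highest, 0.80, which met the criterion only without 0%-Axitinib replicate 1 or 3%-Axitinib replicate 2. Plvap, the most abundant of the 23, had a log2 fold change of -0.39 and did not meet it. In the 3%-Axitinib replicates, the mean log2 level of the list differed from the 0%-Axitinib mean by -1.58, -1.05 and -0.86.

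Relative to that mean, Klf4 was 1.86 higher and Klf2 was 1.22 higher on the log2 scale in the 3%-Axitinib group, and neither overlapped between the groups. Sox7 and Tal1 had differences of -1.48 and -1.75 and likewise did not overlap. These 4 had a two-sided exact permutation p of 0.1, the smallest that 3 against 3 samples allow, among 10 genes compared. On this scale, the share of all tested genes without overlap was not counted. A gene of unchanged level comes out higher on it, since the list mean was lower in every 3%-Axitinib replicate. The differences of Sox17 (-0.50), Sox18 (-0.66), Erg (-0.49), Fli1 (-0.25), Ets1 (-0.83) and Gata2 (-0.54) overlapped between the groups, with exact p between 0.2 and 0.5. Without 0%-Axitinib replicate 3, the relative difference of Klf2 was 1.57 and that of Klf4 was 1.44, while that of Tal1 was -1.02 and that of Gata2 was 0.08. Sox18, Erg and Ets1 then had -0.32, -0.26 and -0.44. Leaving out 0%-Axitinib replicate 2 gave 0.86 for Klf2, and leaving out 3%-Axitinib replicate 3 gave 0.03 for Fli1. The ratio shows unequal change and not which of its terms changed, and the level of Klf2 itself did not differ beyond its spread.

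**Figure D3:**
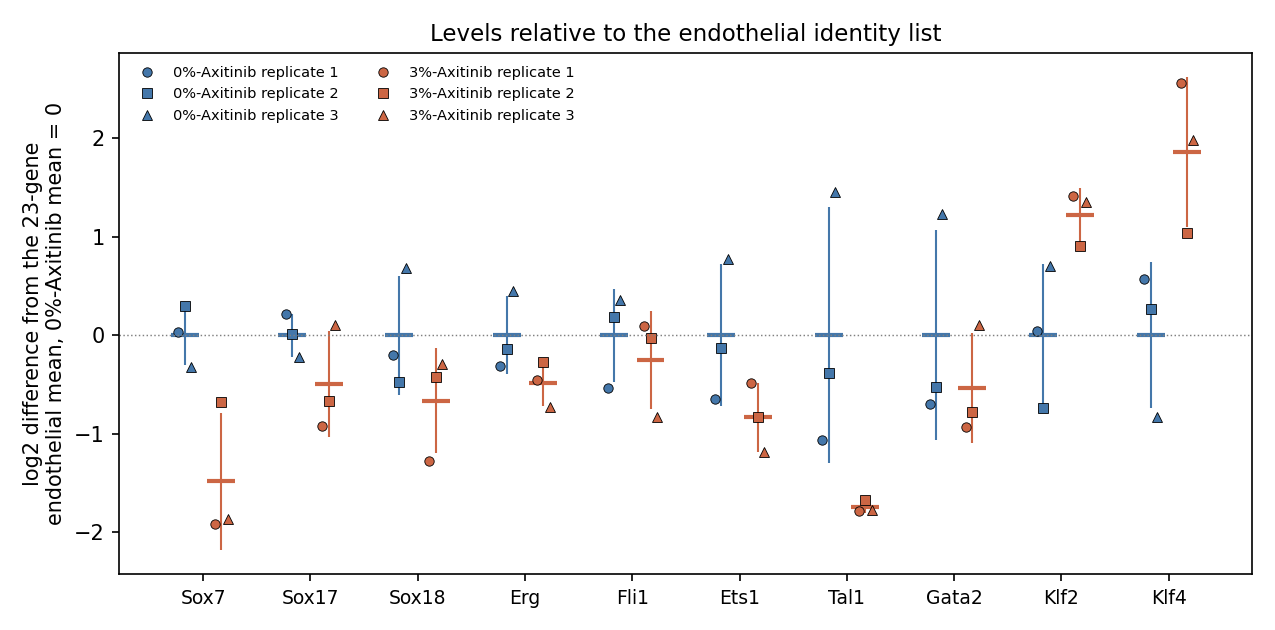
Log2 level of each gene minus the mean log2 level of 23 endothelial identity genes, with the 0%-Axitinib mean set to 0; points are samples, horizontal bars are means and vertical lines are ± 1 SD of 3 samples. Klf2 and Klf4 lie above, and Sox7 and Tal1 below, all 0%-Axitinib samples in the 3%-Axitinib group.

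Genes that are bound by ERG and other ETS factors in endothelial cells were lower for 9 of 12 tested, with a median log2 fold change of -1.26 against -0.03 over all tested genes. Of these 12, 11 are also on the endothelial identity list, so the lists are not independent. Cdh5, the adherens junction cadherin, had a mean of 138 CPM (SD 17.8) without the drug and 26.6 CPM (SD 11.7) with it, and its log2 fold change was -2.37. The VEGF receptors Kdr and Flt1 had log2 fold changes of -2.16 and -1.22, and the angiopoietin receptor Tek and its relative Tie1 had -1.23 and -1.30. Robo4 (-1.76), Icam2 (-1.47), Egfl7 (-1.20) and Cldn5 were the other lower genes. Tek missed the criterion without 0%-Axitinib replicate 1 and without 3%-Axitinib replicate 2. Icam2 and Egfl7 missed it without 0%-Axitinib replicate 3 (-0.79 and -0.64) and without 3%-Axitinib replicate 1 or 2, and Egfl7 also without 0%-Axitinib replicate 1 or 3%-Axitinib replicate 3. Eng, a TGF-beta co-receptor and the most abundant of the 12, had a log2 fold change of -0.01, and Vwf had -0.64 and Nos3 -0.31, none of which met the criterion.

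Genes known to be induced by KLF2 and KLF4 did not meet the criterion for either of the 2 tested. Nos3, the endothelial nitric oxide synthase, was at 12.8, 4.84 and 8.36 CPM in the 0%-Axitinib group and 5.06, 4.65 and 11.2 CPM in the 3%-Axitinib group. Thbd, thrombomodulin, was at 101, 72.5 and 40.6 CPM and at 92.7, 37.3 and 56.2 CPM. The groups overlapped for both. Of 10 genes of the kinase and MEF2 pathway that induces Klf2 and of the cerebral cavernous malformation complex that restrains it, Krit1 alone was lower, with a log2 fold change of -0.78 (standard error 0.17) and groups that did not overlap. It was lower without any 1 sample. Map3k3 (-0.99) joined it without 0%-Axitinib replicate 3, and Pdcd10 without 0%-Axitinib replicate 1 (-0.82) and without 3%-Axitinib replicate 2 (-0.89). Mef2d, the most abundant of the 10, had a log2 fold change of -0.21, and Mapk7, which encodes ERK5 and had the highest, 0.28.

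Since KLF2 and KLF4 can be induced as fast as immediate early genes, 14 of those genes were read beside them. Btg2 was lower with a log2 fold change of -1.55, and none of the other 13 met the criterion. With 0%-Axitinib replicate 3 left out, Btg2 (-1.04), Egr2 (-1.47) and Fos (-0.97) were lower and Ier2 (0.62) was higher, and without 0%-Axitinib replicate 1, Fosb (1.69) and Nr4a1 (1.09) were higher. The most abundant, Atf3, had a log2 fold change of -0.52, and Myc had the highest, 0.33. Their summed level was 1239, 1428 and 891 CPM in the 0%-Axitinib group and 1144, 813 and 1099 CPM in the 3%-Axitinib group, so the groups overlapped.

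Relatives of the 10 factors did not all follow them. Among 17 tested other ETS genes, 6 were lower. Elf1 (log2 fold change -1.07), Etv3 (-1.03), Ets2 (-0.73) and Elf4 (-0.69) were lower without overlap. Spib (-3.91) and Spic (-2.12), ETS factors of B cells and of macrophages, were also lower, and both were highest in 0%-Axitinib replicate 3, without which neither met the criterion, and each also missed it without either of 2 of the 3%-Axitinib replicates. Ets2 missed it without 0%-Axitinib replicate 1 (-0.58) and without 3%-Axitinib replicate 2 (-0.59), and Elf4 without 3%-Axitinib replicate 1 (-0.58). Gabpa was lower only without 3%-Axitinib replicate 2 (-0.62), and Erf was higher only without 0%-Axitinib replicate 1 (0.67). Spi1, the most abundant of the list, had a log2 fold change of -0.19, and Etv4 had the highest, 0.74, which met the criterion only without 3%-Axitinib replicate 3 (1.18). Among 11 tested other KLF genes, Klf3 (-0.66), Klf7 (-1.35) and Klf8 (-1.14) were lower and Klf15 (2.54) was higher. Klf7 and Klf15 kept their calls without any 1 sample. Klf3 lost its call without 0%-Axitinib replicate 1 (-0.58), Klf8 without 0%-Axitinib replicate 2 (-0.93) and without 3%-Axitinib replicate 1 (-1.18), and both without 3%-Axitinib replicate 2 (-0.56 and -1.02). Klf15, which is abundant in skeletal muscle, was at 42.9, 10.5 and 38.7 CPM in the 3%-Axitinib replicates and at no more than 7.36 CPM in the 0%-Axitinib group, and it was highest in the replicates with high muscle genes. Klf6 was the most abundant of these KLF genes, with a log2 fold change of -0.54 that missed the criterion and met it only without 0%-Axitinib replicate 3 (-0.64).

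Of 9 tested other SOX genes, only Sox9, the chondrocyte regulator, met the criterion, with a log2 fold change of 1.32, and it missed it without 0%-Axitinib replicate 2 (1.14) and without 3%-Axitinib replicate 2 (0.87), where no SOX gene of the list met it. Sox10, the most abundant of them and a Schwann cell factor, had the highest log2 fold change, 1.87, but missed the criterion, and Sox13 had the lowest, -0.42. Without 0%-Axitinib replicate 1, Sox2, Sox8, Sox9 and Sox10 were higher, and without 0%-Axitinib replicate 3, Sox6, Sox9, Sox10 and Sox12 were. Gata3 was lower with -1.49, while Gata6, the other tested GATA gene, had 0.65. Gata3 kept its call only without 0%-Axitinib replicate 1 and without 3%-Axitinib replicate 2, and Gata6 was higher without 0%-Axitinib replicate 1 (1.28). Of 10 genes for partners of TAL1, Lmo2 was lower with a log2 fold change of -1.05 and groups that did not overlap. Ldb1, its most abundant partner and the bridging factor of the complex, had the highest log2 fold change, 0.52, and missed the criterion. Ldb1 (0.89, adjusted p of 0.0426 in edgeR's test) and Lmo4 (0.66, against -0.49) were higher without 0%-Axitinib replicate 3. The median of the 10 partner genes was then 0.25, against -0.26 with all samples, and Lmo2 stayed lower.

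Among 17 other tested transcription factors of the endothelium, 3 were lower. These were Bcl6b (log2 fold change -2.001), a repressor enriched in endothelial cells, Hhex (-1.10), a homeobox factor of early endothelium and blood, and Epas1 (-0.70), which encodes HIF-2 alpha. Their groups did not overlap. Epas1 missed the criterion without 0%-Axitinib replicate 1 or 2 and without 3%-Axitinib replicate 2 or 3. Id3, the most abundant, was at 82.5, 37.1 and 150 CPM in the 0%-Axitinib group and 131, 383 and 146 CPM in the 3%-Axitinib group. Its relative Id1 had the highest log2 fold change of the list, 1.43, without meeting the criterion. Id1 (1.99), Id3 (1.87) and Foxc1 (1.61) were higher by it without 0%-Axitinib replicate 3, and Id1 was also higher without 3%-Axitinib replicate 1 (1.74). The venous regulator Nr2f2 had -0.13 and the Notch effector Hey1 had 0.24 (-0.60 without 3%-Axitinib replicate 2). Of 4 tested lymphatic genes, the receptor Flt4 was lower with -1.83 (-1.15 without 0%-Axitinib replicate 3), while Pdpn, the most abundant, had 0.72 and missed the criterion. Prox1, the defining lymphatic factor, was at or below 0.731 CPM in every sample and was not tested.

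The 10 genes differed in how alike their profiles were over the 6 samples. As a description over 6 samples that share the group difference, Pearson's r of log2 CPM lay between 0.673 and 0.990 for pairs among the 8 lower genes. Ets1 and Tal1 were the most alike. Both were highest in 0%-Axitinib replicate 3, and no r was computed without that sample. Klf2 had r between -0.03 and 0.57 with the 8, and Klf4 had r between -0.79 and -0.29. Among 14343 genes with a mean of at least 1 CPM, those most like the mean log2 level of all 10 were Prom1, Pigo, Dll4, Upp1, Cenpj, BC064078, Inpp4a, F11r, Esam and Lbh, with r between 0.984 and 0.993 over 6 samples. Prom1 had a log2 fold change of -3.26 (-2.16 without 0%-Axitinib replicate 3). Dll4, the Notch ligand of tip cells, had -2.27, F11r and Esam, which encode junction proteins, had -1.58 and -1.31, and Pigo and Inpp4a did not meet the criterion with all samples.

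Other cell types differed in their own ways, and their part in the results above was not tested. Macrophage genes met the criterion in 0 of 9 cases, from Adgre1 with a log2 fold change of -0.96 to C1qb with 0.35, and Cd68 was the most abundant. Adgre1 was lower without 0%-Axitinib replicate 3 (-1.35). Of 7 tested pan-leukocyte genes, 2 were lower, with the lowest log2 fold change in Ptprc (-1.84) and the highest in Vav1 (-0.44), and Laptm5 was the most abundant. Leaving out replicate 1 of the 0%-Axitinib group gave 4 lower, and leaving out that of the 3%-Axitinib group gave 1. Among 8 pericyte and smooth muscle genes, Rgs5 (-2.22) and Notch3 (-1.66) were lower and Des (5.16), which skeletal muscle also makes, was higher and the most abundant. Without 3%-Axitinib replicate 1, Des had a log2 fold change of 4.12. Of 8 fibroblast genes, Col1a1 was higher with a log2 fold change of 1.79, the highest of the list, and Dpt had the lowest, 0.25. Col1a1 missed the criterion without 3%-Axitinib replicate 2 (0.83), and also without 0%-Axitinib replicate 2 (1.59) or 3 (1.58) and without 3%-Axitinib replicate 3 (2.04). Cartilage genes were higher for 5 of 9 tested, from Acan with 3.92 to Col11a1 with 0.44, which missed the criterion, and Comp was the most abundant. In these counts, any rabbit reads that map to mouse cartilage genes, Sox9 included, cannot be told apart from mouse reads. Whether such reads were present was not tested. Without 3%-Axitinib replicate 2 the count was 3 of 9, and Acan (3.20) was among them. Skeletal muscle genes were higher for 17 of 19 tested, from Mb with 8.99 to Cav3 with 5.35, and Acta1 was the most abundant. Mb had 12.8 without 0%-Axitinib replicate 1, and without 3%-Axitinib replicate 1 Mb had 6.99 and Cav3 4.29. The count was 13 of 19 without 3%-Axitinib replicate 1 or 3, 12 without 0%-Axitinib replicate 2 or 3, and 19 without 0%-Axitinib replicate 1 or 3%-Axitinib replicate 2. That last sample lay within the range of the 0%-Axitinib group in its summed level. Among 4 tested keratinocyte genes Krt10, the most abundant, was lower, Dsp had the lowest log2 fold change, -4.29, and Trp63 the highest, -0.69. Without 0%-Axitinib replicate 2, none of the 4 met the criterion, and Krt10 had a log2 fold change of 0.52, Dsp of -0.93 and Trp63 of 2.25. None met it without 3%-Axitinib replicate 1 or 2 either, and 4 of 5 tested did without 0%-Axitinib replicate 1 or 3.

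Promoter sequences were read for the members with an entry, since 8 of the 10 genes were lower together while the KLF genes were not. RefSeq starts on GRCm38.p6 gave 9 windows of 250 bases before the start for 5 of the 10 genes, namely Klf4, Tal1, Gata2, Klf2 and Erg, and no window for Sox7, Sox17, Sox18, Fli1 and Ets1. Both strands were searched for a GATA core (AGATAA, in 9.99% of 32851 promoter windows), a KLF core (CACCC, in 52.0%), a SOX core (ACAAT, in 27.7%), an ETS core (CCGGAA, in 12.0%) and the MEF2 consensus (in 2.92%), which was chosen after the sequences had been seen. The GATA core was in 2 of the 9 windows, the KLF core in 5, the SOX core in 1, the ETS core in 0 and the MEF2 consensus in 2. The windows of Tal1 and Klf2 are shown, since over all 6 samples Tal1 had the lowest log2 fold change of the 10 and Klf2 the value nearest to 0. The first of 2 Tal1 windows, chr4:115056176-115056425 on the plus strand, ends at the base before the annotated gene, and capitals mark the GATA core (205 bases before the start) and the KLF core (138 bases before it), both on the reverse strand. The second Tal1 window, chr4:115057561-115057810, lies inside the gene and held none of the 5 motifs. The Klf2 window, chr8:72318812-72319061 on the plus strand, ends 29 bases inside the first annotated exon, and capitals mark the MEF2 consensus (118 bases before the RefSeq start) and the KLF core on the reverse strand (19 bases before it), which lies inside that exon.
Tal1: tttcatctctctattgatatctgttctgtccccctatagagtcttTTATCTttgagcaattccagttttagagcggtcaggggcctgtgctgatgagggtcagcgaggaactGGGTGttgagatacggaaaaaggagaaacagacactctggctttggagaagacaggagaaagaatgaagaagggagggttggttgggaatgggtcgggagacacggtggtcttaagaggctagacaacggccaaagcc
Klf2: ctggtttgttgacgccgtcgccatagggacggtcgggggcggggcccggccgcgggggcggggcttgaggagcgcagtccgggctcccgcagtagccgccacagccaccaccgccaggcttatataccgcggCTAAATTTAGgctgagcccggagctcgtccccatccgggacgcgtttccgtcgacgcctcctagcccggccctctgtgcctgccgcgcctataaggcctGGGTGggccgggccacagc
The other matches were a GATA core, a SOX core and a KLF core in 1 Erg window, a KLF core in another, the MEF2 consensus in the remaining Erg window, and a KLF core in 1 Gata2 window. A match is a description of letters in the window and not a binding site.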

How the data were processed

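RNA from 3 samples of the 0%-Axitinib group and 3 of the 3%-Axitinib group, harvested with the surrounding murine tissue, was analysed. The paper describes no separation of rabbit RNA before sequencing. The authors selected poly(A) RNA, mapped the reads with STAR 2.5.2b (per the submitters' processing notes) to mm10 and deposited raw read counts per gene, not normalized. The annotation release and the use of strand in counting are not given in the sources used here. Reads assigned to no gene were kept out of library sizes: 3.84% to 48.4% unmapped, 2.71% to 6.65% multimapping, 3.17% to 6.14% outside genes and 3.55% to 5.74% ambiguous. Counts were tested in R 4.3.3 with edgeR 4.0.16 (filterByExpr with minimum count 10 and minimum total 15, TMM, quasi-likelihood test, Benjamini-Hochberg adjustment over 15257 genes), and single values by exact permutation. Mean log2 levels used a prior count of 2. The 3-count floor covers counting error only. Alternatives covered scaling, test (DESeq2 1.42.0, limma 3.58.1), filter, block, a muscle covariate and each sample left out. The fit was tested on simulated data. Positions and exon lengths came from the GENCODE annotation of GRCm38 and promoters from RefSeq. The 10 genes and all lists were chosen with earlier results of these data known. Named were the 10 genes, any gene with an adjusted p of at most 0.05, the most abundant and the extreme genes of each list, called genes of the factor, partner, input and target lists, genes overlapping a member and the 10 genes most like the members. Figures were drawn with matplotlib 3.10.9.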

Additional observations from a re-analysis of the deposited data

How the results depend on the processing

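The median log2 fold change of the 10 genes was negative in all 15 alternatives, between -2.14 and -1.31. The count of the 10 that met the criterion, in either direction, was 5 with the skeletal muscle covariate, 7 or 8 under the other settings, 6 to 8 without a sample, and 8 at a fold change of at least 2. Of all tested genes, 8.24% to 13.7% were lower and 6.65% to 14.5% higher without a sample. Under the other settings, 8.87% to 16% were lower and 6% to 10.7% higher, and for a fold change of at least 2 no such share is given. The 8 without 0%-Axitinib replicate 1 include Klf4 as higher, and Sox17 is not among them. Sox7 could not be tested with at least 10 counts in every sample, where 7 genes met the criterion. At an adjusted p of at most 0.05, DESeq2's Wald test called 7 of the 10 and 1960 of all genes, and leaving out a sample gave 0 to 5 of the 10 and 0 to 1252 of all. For all genes, limma-voom called 2, no filter 15, the replicate block 2 and the muscle covariate 0. With that covariate, 850 genes were lower and 926 higher by the criterion, and leaving out a sample gave 1308 to 2148 lower and 1055 to 2274 higher. The cause of these shifts was not tested. Total counts without scaling gave 2448 lower and 989 higher genes, against 1785 and 1456, with a median of all genes of -0.16 against -0.03. Leaving out a sample gave 4 to 7 genes without overlap relative to the endothelial list, 0 to 2 SoxF shares without overlap, and 7 or 8 of the 10 genes without overlap in level (the last chosen after seeing the data). Fewer samples overlap less by construction, and the share of all tested genes without overlap was not counted in these fits. The replicate numbers were not taken to pair the samples, since same-numbered deviations had r of 0.182, -0.115 and -0.174, and with the replicate block 8 of the 10 genes, 1354 lower and 1249 higher genes met the criterion. Depth limits Sox7 most, with 6 reads in 1 sample.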

Other observations

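Values outside the comparison concern T cell genes in the nude host. In 0%-Axitinib replicate 3, the T cell receptor complex genes Cd3d and Cd3g and the co-receptor gene Cd8a stood at 66.7, 24.7 and 25.7 CPM, while they were between 0 and 2.97 CPM in all other samples. Mmrn1, which lymphatic endothelium and platelets share, was at 16.0 CPM in the same replicate and at no more than 0.758 CPM elsewhere. These genes did not pass the filter on low counts in the fit of all 6 samples and have no test there. Without 0%-Axitinib replicate 1 they were tested and met the criterion as lower, from Mmrn1 with a log2 fold change of -6.66 to Cd8a with -10.7, and without 0%-Axitinib replicate 2 or 3 they were not tested. Without 3%-Axitinib replicate 1 or 2, Cd3g and Cd8a met it and Cd3d and Mmrn1 missed it, and without 3%-Axitinib replicate 3 none of the 4 met it. They were chosen after their values had been seen in 0%-Axitinib replicate 3, which every fit that tested them keeps, so these calls restate that choice. Cd8a was at 0 in all 3%-Axitinib samples, so the exact size of its change was not measured.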
